A study of Homo sapiens with 4 samples.

Results

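Nucleic acid sensors and interferon-stimulated genes were followed in ORM Jurkat cells, which had passed through 3 μm pores once. The 50 genes were chosen by symbol, as the receptors and cytosolic proteins that detect foreign or displaced nucleic acid, the adaptors and transcription factors they act through, and the genes that interferon switches on. Of these, 47 had a probe set named in the platform's annotation, among 17687 named genes in all, and TREX1, IRAK1 and IRAK4 are not listed there. The Jurkat line, long established in culture, comes from a human T-cell leukemia. There were 2 arrays of ORM cells, taken from below the pores at 24 h, after a single passage (1 round), and 2 arrays of control Jurkat cells that had not migrated and that the treatment notes describe as a normal suspension culture. All 4 samples were cells of this single line kept in serum-containing medium. The study's chemotaxis method starts cells without serum above the pores and has serum below, and whether the ORM cells were set up this way is not given in the sources used here. Crossing, selection of the cells that crossed and the culture in inserts cannot be told apart. The labels call the replicates biological, without saying whether they came from separate cultures, and each p-value therefore reflects no more than how far these 4 arrays scatter, which may be technical. Free-text descriptions in the labels name other treatments for these arrays. They give a control for ORM replicate 1, a 3D culture for ORM replicate 2 and a suspension culture after 3D confinement for both controls. The groups were therefore taken from the titles, which the source names and the series design match. The values are log2 signals of human Clariom S arrays, so that a difference of 1 is a 2-fold change, and signals of different genes come from different probes and cannot be ranked against each other.

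Endosomal Toll-like receptors detect RNA or DNA that has been taken up, while cGAS, AIM2, IFI16, RIG-I and MDA5 detect DNA or RNA in the cytosol or nucleus. Signals of most of them, though not of the inflammasome receptor AIM2, pass through MyD88, MAVS or STING to interferon regulatory factors, which induce type I interferon. Interferon then acts through its receptor on the complex ISGF3, which contains IRF9 and binds an element with repeated GAAA cores, the interferon-stimulated response element, in front of genes such as ISG15, IFIT1 and MX1. Displaced chromatin in migrating cells with a ruptured nuclear envelope is a known ligand of cGAS in other cell types.

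The core of the response element was looked for in front of these genes. The 250 bases before each annotated start were searched for the core of this element, GAAA, then NN for 2 bases of any kind, then GAAA, and for its complement on the other strand, TTTC, NN and TTTC, with overlapping matches counted. RefSeq windows of GRCh38.p14 were found for 36 of the 50 genes. A match was present in 18 of these 36, among them 15 of the 18 response genes with a window, against 3.71% of the 27305 genes with a window. No match lay in the windows of TLR3, TLR8, TLR9, TLR2, TLR4 and TLR6 or of IRF1, IRF5 and IRF9. A match is a description of these letters and not of a bound site. The windows of 4 genes known as interferon targets and of the adaptor gene MYD88 are shown whole, from 5′ to 3′ and ending at the base before the start, with each match in capitals.
ISG15 (chr1:1013247-1013496, plus strand): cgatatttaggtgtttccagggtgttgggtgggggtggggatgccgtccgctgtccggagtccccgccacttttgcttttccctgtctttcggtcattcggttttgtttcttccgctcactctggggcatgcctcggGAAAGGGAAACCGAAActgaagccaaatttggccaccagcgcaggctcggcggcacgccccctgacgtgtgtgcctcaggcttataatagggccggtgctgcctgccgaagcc
IFI6 (chr1:27672193-27672442, minus strand): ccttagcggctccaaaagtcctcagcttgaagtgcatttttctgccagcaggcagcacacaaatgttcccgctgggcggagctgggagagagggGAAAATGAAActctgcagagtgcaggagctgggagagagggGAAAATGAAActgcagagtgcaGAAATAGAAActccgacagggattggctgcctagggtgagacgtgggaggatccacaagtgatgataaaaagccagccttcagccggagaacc
IFI44L (chr1:78620198-78620447, plus strand): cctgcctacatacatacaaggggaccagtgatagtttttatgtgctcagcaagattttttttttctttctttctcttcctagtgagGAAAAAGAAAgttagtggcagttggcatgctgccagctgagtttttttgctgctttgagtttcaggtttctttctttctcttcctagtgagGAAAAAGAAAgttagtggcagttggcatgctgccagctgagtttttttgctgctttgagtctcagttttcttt
IFITM1 (chr11:313790-314039, plus strand): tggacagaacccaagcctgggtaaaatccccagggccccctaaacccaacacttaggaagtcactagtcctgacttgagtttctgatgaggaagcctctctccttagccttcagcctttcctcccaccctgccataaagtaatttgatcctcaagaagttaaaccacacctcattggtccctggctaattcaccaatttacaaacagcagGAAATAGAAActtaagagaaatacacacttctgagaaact
MYD88 (chr3:38138411-38138660, plus strand): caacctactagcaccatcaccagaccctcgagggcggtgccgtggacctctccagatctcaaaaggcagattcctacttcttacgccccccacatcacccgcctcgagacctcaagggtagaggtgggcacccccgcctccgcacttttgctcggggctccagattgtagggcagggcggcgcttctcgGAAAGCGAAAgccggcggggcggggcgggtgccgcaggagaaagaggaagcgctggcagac
The ISG15 window holds a pair of overlapping matches that end 98 bases before the start. In IFI44L the same 30 bases around the match occur at 2 places of the window. For further genes only 30 bases around a match are shown, chosen because their array values are described below.
IFIT1 (chr10:89392504-89392533, plus strand): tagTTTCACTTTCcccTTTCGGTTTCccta
IFITM3 (chr11:320884-320913, minus strand): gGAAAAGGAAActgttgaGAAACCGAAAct
IFI27 (chr14:94110625-94110654, plus strand): cagTTTCGGTTTCctgGAAAATGAAAccta
BST2 (chr19:17405738-17405767, minus strand): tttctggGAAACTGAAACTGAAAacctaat
MX1 (chr21:41431844-41431873, plus strand): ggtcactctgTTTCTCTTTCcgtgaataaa
IFIH1 (chr2:162318821-162318850, minus strand): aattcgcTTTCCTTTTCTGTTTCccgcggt
IFIH1 (chr2:162318686-162318715, minus strand): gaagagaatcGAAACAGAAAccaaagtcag
AIM2 (chr1:159076937-159076966, minus strand): tctaggccacTTTCTGTTTCcaatcagtgt
The matches of IFIT1, IFITM3 and IFI27 stand in pairs, those of BST2 and of the upstream site of IFIH1 overlap, and AIM2 and MX1, the latter at the third of its annotated starts, have 1 each.

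Markers of T cells and of other cell types were read only against the quartiles of their own arrays, which does not by itself identify a cell type. The 11 measured T-cell markers, CD3D, CD3E, CD3G and LCK among them, gave 8.42 to 11.77, above the upper quartiles of 7.64 to 7.72 on every array. Of the other markers measured, 4 of 9 for myeloid and plasmacytoid dendritic cells lay below the lower quartile on every array. So did 1 of 6 for B cells, 3 of 4 for NK cells and 0 of 3 for erythroid cells. The dendritic cell marker CLEC4C (3.25 to 3.38) and the B-cell marker MS4A1 (2.59 to 2.86) were among those below. TCF4 of the dendritic cell list (6.93 to 7.26) was not, and the B-cell marker CD79A (9.69 to 10.25) lay above the upper quartile. The lower quartiles of the arrays lay between 4.14 and 4.26, and 8 of the 47 genes, TLR1, TLR6, TLR8, CGAS, AIM2, IFI44, IFI44L and IFIT1, lay below them on every array. Control replicate 2 stood apart: the log2 difference between both controls had an SD of 0.46 over the 47 genes, against 0.23 for the ORM pair and 0.30 for the pair with replicate number 1. Over all probe sets these SDs were similar, at 0.40, 0.25 and 0.29.

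Across the set, expression in ORM cells was close to that in control cells, and TLR7 alone passed the study's threshold, a change of more than 1.8-fold with an unadjusted p under 0.05. That is 1 of 47 genes, against 0.704% of all 21448 probe sets, of which 91 were higher and 60 lower (123 and 42 after median centring of the arrays). At an unadjusted p under 0.05 with any fold change, MYD88 and MX1 were higher, against 5.91% of all probe sets, and TLR7 and IRF9 lower, against 5.5%, which makes 4 of 47 genes, against 11.4% in either direction. After adjustment none of the 47 genes was under 0.05 in limma (lowest adjusted p = 0.428, the lowest of the whole table too), nor did any by the methods' t-test. Both ORM arrays lay above both controls in 10 genes and below them in 8, against 45.6% of all probe sets on either side. The median log2 fold change was -0.03 over the 47 genes (0.03 with each array centred on its median), against -0.04 over all probe sets, with 21 values above 0 and 26 below.

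**Figure D1:**
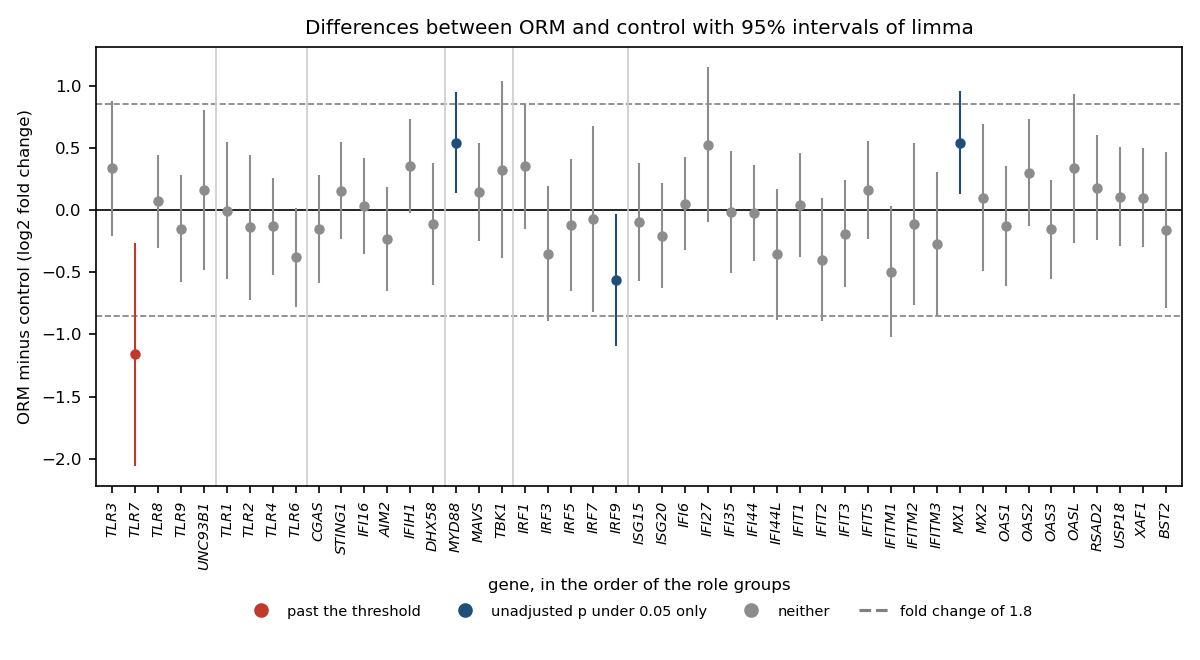
Difference between the means of 2 ORM and 2 control arrays (vertical axis, log2 fold change) for each of the 47 measured genes (horizontal axis, in the order of the role groups parted by grey lines). Points are limma estimates with 95% confidence intervals, and dashed lines mark a fold change of 1.8. TLR7 lies below the lower line at -1.16, and of the other genes only the intervals of MYD88, MX1 and IRF9 leave out 0.

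Among the endosomal receptors, the RNA receptor gene TLR7 was lower in ORM cells and the other members did not pass the threshold. In ORM cells the TLR7 log2 signal was 3.56 and 3.85, against 4.27 and 5.46 in control cells. Both ORM values lay below both controls, and the control value of replicate 2 was far above that of replicate 1. The means were 3.71 ± 0.21 (SD, n = 2) after migration and 4.87 ± 0.84 (SD, n = 2) without it, which gives a log2 fold change of -1.16 (SE, standard error, 0.37, 95% interval -2.06 to -0.26) or 2.23-fold lower (unadjusted p = 0.0189 and adjusted p = 0.428 from limma). The gap between both controls, 1.19, was at least as wide as this difference. Without control replicate 2 the log2 fold change was -0.57 and the call was lost, as it was without ORM replicate 1 (-1.02), without ORM replicate 2 (-1.31) and by the methods' t-test, whereas without control replicate 1 it was -1.76 and past the threshold. Both ORM values lay below the lower quartile of their arrays.

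Markers of B cells and myeloid cells, which use TLR7, moved both ways. PAX5, a B-cell transcription factor, was at 6.15 and 6.17 in ORM and 6.67 on both controls (log2 fold change -0.51, SE 0.16), and the myeloid lysozyme gene LYZ was at 2.96 and 3.11 against 3.57 and 3.51 (-0.51, SE 0.16). Each was the only one of its list under an unadjusted p of 0.05. That is 16.7% of the B-cell and 11.1% of the myeloid and dendritic cell markers, against 11.4% of all probe sets. All LYZ values lay below the lower quartile of their arrays. Of 6 B-cell markers measured, 4 were lower, with CD79A at -0.36, and 2 higher, MS4A1 at 0.115 and BLK at 0.15. Of 9 myeloid and dendritic cell markers measured, 5 were lower and 4 higher, CD14 by the most at 0.475. The median marker signal was 6.31 and 6.19 against 6.56 and 6.46 for B cells, and 5.05 and 4.63 against 4.73 and 4.96 for myeloid and dendritic cells, where the groups overlapped. At that p 3 of 11 T-cell markers (27.3%, against 11.4%) moved, in both directions, with CD3D at 0.52, CD247 at -0.52 and PTPRC at -0.44. The part of these markers in the TLR7 difference was not tested.

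TLR8, the neighbour of TLR7 on chromosome X and also an RNA receptor, showed 3.16 and 3.19 in ORM cells and 3.08 and 3.13 in controls. All 4 values were dim and nearly level, with a log2 fold change of 0.07 (95% interval -0.30 to 0.44). The receptor for double-stranded RNA, TLR3, was at 4.80 and 4.57 in ORM and 4.08 and 4.62 in control cells. These groups overlapped, and the difference of 0.34 (SE 0.22) became 0.61 without control replicate 2 and 0.07 without control replicate 1. The DNA receptor gene TLR9 had 4.32 and 4.41 against 4.67 and 4.36, a log2 fold change of -0.15 (SE 0.18). UNC93B1, the chaperone that brings these receptors to endosomes, gave 7.63 and 7.81 in ORM cells and 7.94 and 7.18 in controls. The ORM values fell between the controls, and the difference of 0.16 had a 95% interval of -0.48 to 0.80. The median of the 5 genes was 0.07, and it was -0.22 without control replicate 2.

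**Figure D2:**
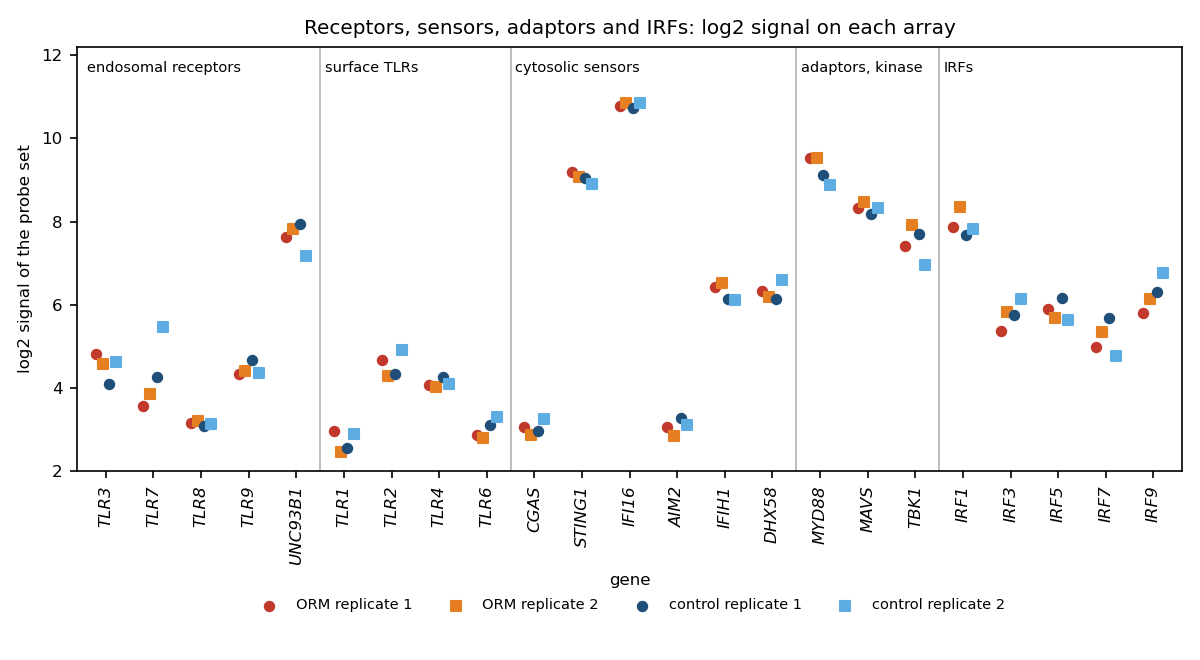
Log2 signal (vertical axis) of 23 receptor, sensor, adaptor and IRF genes (horizontal axis) on each of the 4 arrays. Each point is 1 array, red and orange for ORM and dark and light blue for control, and grey lines part the role groups. In TLR7 the light blue point of control replicate 2, at 5.46, stands above the other 3, and MYD88 has both ORM points at 9.53.

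The receptors of the cell surface, which bind bacterial lipids and lipopeptides, had no gene past the threshold. TLR6, which pairs with TLR2, was at 2.86 and 2.78 in ORM and 3.11 and 3.29 in control cells. The groups did not overlap, yet all values were below the lower quartiles, and the log2 fold change of -0.38 (SE 0.16, adjusted p = 0.440 from limma) missed an unadjusted p of 0.05. Its neighbour and close relative TLR1 gave 2.96 and 2.45 against 2.54 and 2.88, with no difference between the means (-0.01, 95% interval -0.56 to 0.55). TLR4, the receptor for lipopolysaccharide, had a log2 fold change of -0.13 (SE 0.16) from 4.07 and 4.02 against 4.26 and 4.09. For TLR2 the values 4.67 and 4.29 in ORM and 4.34 and 4.90 in control cells overlapped, at a log2 fold change of -0.14 (SE 0.24) that turned to 0.14 without control replicate 2. The median of these 4 genes was -0.14.

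Of the 7 cytosolic sensor genes 6 were measured, and none passed the threshold. IFIH1, which encodes the double-stranded RNA sensor MDA5, showed 6.43 and 6.51 in ORM cells and 6.14 and 6.10 in controls. Replicates lay within 0.08 of each other and both ORM arrays above both controls, a log2 fold change of 0.35 (SE 0.16, 95% interval -0.03 to 0.73, adjusted p = 0.444 from limma) that stayed between 0.31 and 0.39 with any array left out. Its unadjusted p was 0.0641 in limma. In limma it was under 0.05 with quantile normalization (0.044), median centring (0.0407) or only probe sets averaging 5 or more (0.0484). It was over 0.05 with trend and robust settings (0.0915) or a replicate block (0.0866). The methods' t-test gave 0.0159. CGAS, the enzyme that makes the cyclic dinucleotide cGAMP on DNA, was at 3.05 and 2.87 in ORM and 2.97 and 3.25 in control cells. These values were below the lower quartile of every array, and the groups overlapped (log2 fold change -0.15, 95% interval -0.58 to 0.28). STING1, the receptor for cGAMP, had 9.18 and 9.07 against 9.04 and 8.90. Both ORM values lay above both controls by little, and the log2 fold change was 0.16 (95% interval -0.24 to 0.55).

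IFI16 and AIM2, neighbours on chromosome 1, encode DNA sensors of the same family, the latter an inflammasome receptor. IFI16 was at 10.79 and 10.85 in ORM and 10.72 and 10.86 in control cells. The difference was 0.03 with a 95% interval of -0.36 to 0.42. AIM2 was dim at 3.06 and 2.84 against 3.27 and 3.10, with both ORM values lower and a log2 fold change of -0.24 (SE 0.17). DHX58, whose product LGP2 tunes MDA5 and RIG-I, had 6.33 and 6.19 against 6.14 and 6.60, a difference of -0.11 (SE 0.20). The median of the 6 genes was -0.04, and it was 0.09 without control replicate 2.

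Between the sensors and the transcription factors, MYD88 was higher in ORM cells at an unadjusted p under 0.05 but below the fold threshold. MYD88, the adaptor of nearly all Toll-like receptors and of the interleukin-1 receptors, was at 9.53 in both ORM arrays and at 9.11 and 8.87 in controls. The ORM values lay above both controls, and the log2 fold change was 0.54 (SE 0.17, 95% interval 0.13 to 0.95), or 1.45-fold (unadjusted p = 0.0167 and adjusted p = 0.428 from limma). Leaving out any array kept it between 0.42 and 0.66, but without either ORM array the unadjusted p rose to 0.0969 in limma. MAVS, the mitochondrial adaptor of RIG-I and MDA5, had 8.33 and 8.48 against 8.19 and 8.33, a log2 fold change of 0.15 (SE 0.17). TBK1, the kinase that phosphorylates IRF3, gave 7.40 and 7.92 in ORM and 7.71 and 6.96 in control cells. Its replicates differed by 0.52 and 0.75, more than the group means, and the difference of 0.33 (SE 0.30) became -0.05 without control replicate 2.

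The 5 interferon regulatory factors were split, with IRF9 lower at an unadjusted p under 0.05 and none past the threshold. IRF9, the DNA-binding subunit of ISGF3, was at 5.79 and 6.13 in ORM cells and 6.30 and 6.75 in controls. The groups did not overlap, and the log2 fold change was -0.57 (SE 0.22, 95% interval -1.09 to -0.04), or 1.48-fold lower (unadjusted p = 0.0398 and adjusted p = 0.428 from limma). It was -0.34 without control replicate 2 and -0.79 without control replicate 1. The unadjusted p was no longer under 0.05 with quantile normalization or median centring (0.0534 and 0.0601 in limma), by the methods' t-test, or without ORM replicate 1, ORM replicate 2 or control replicate 2 (p of 0.0622 to 0.251 from limma). IRF1, a factor that interferon-γ induces, had 7.86 and 8.34 in ORM and 7.67 and 7.83 in control cells. Both ORM values were higher, the lower of them by a narrow margin, at a log2 fold change of 0.35 (SE 0.21). IRF3, the factor that TBK1 activates, gave 5.37 and 5.83 against 5.76 and 6.14, a log2 fold change of -0.35 (SE 0.23) with overlapping groups. IRF5 had a log2 fold change of -0.12 (SE 0.22), from 5.89 and 5.67 against 6.16 and 5.64. IRF7, itself induced by interferon, was at 4.97 and 5.33 between controls of 5.67 and 4.77, and its difference of -0.07 had a 95% interval of -0.82 to 0.68. The median of the 5 genes was -0.12, and it ranged from -0.34 without control replicate 2 to 0.14 without control replicate 1.

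None of the 24 response genes passed the threshold, 1 of them (4.17%, against 11.4% of all probe sets) had an unadjusted p under 0.05, and their median log2 fold change was -0.02, with 11 values above 0 and 13 below (median 0.03 with each array centred on its median). Both ORM arrays lay above both controls in 5 genes, IFI6, IFI27, IFIT5, MX1 and OAS2, and below them in 3, IFIT2, IFITM1 and OAS3, which is 33.3% against 45.6% of all probe sets. MX1, a GTPase that traps viral ribonucleoproteins, was the gene under that p. Its ORM arrays gave log2 signals of 4.28 and 4.43 and its controls 3.93 and 3.70. The ORM values were higher by more than either replicate gap, at a log2 fold change of 0.54 (SE 0.17, 95% interval 0.12 to 0.96) or 1.45-fold (unadjusted p = 0.0184 and adjusted p = 0.428 from limma), and 0.43 to 0.66 with any array left out. Its unadjusted p was over 0.05 by the methods' t-test and without ORM replicate 1, ORM replicate 2 or control replicate 2 (p of 0.0525 to 0.137 from limma). Both control values were below the lower quartile of their arrays. The neighbouring gene MX2, which restricts retroviruses, gave 5.74 and 5.82 between controls of 6.02 and 5.34, a log2 fold change of 0.10 (SE 0.25).

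**Figure D3:**
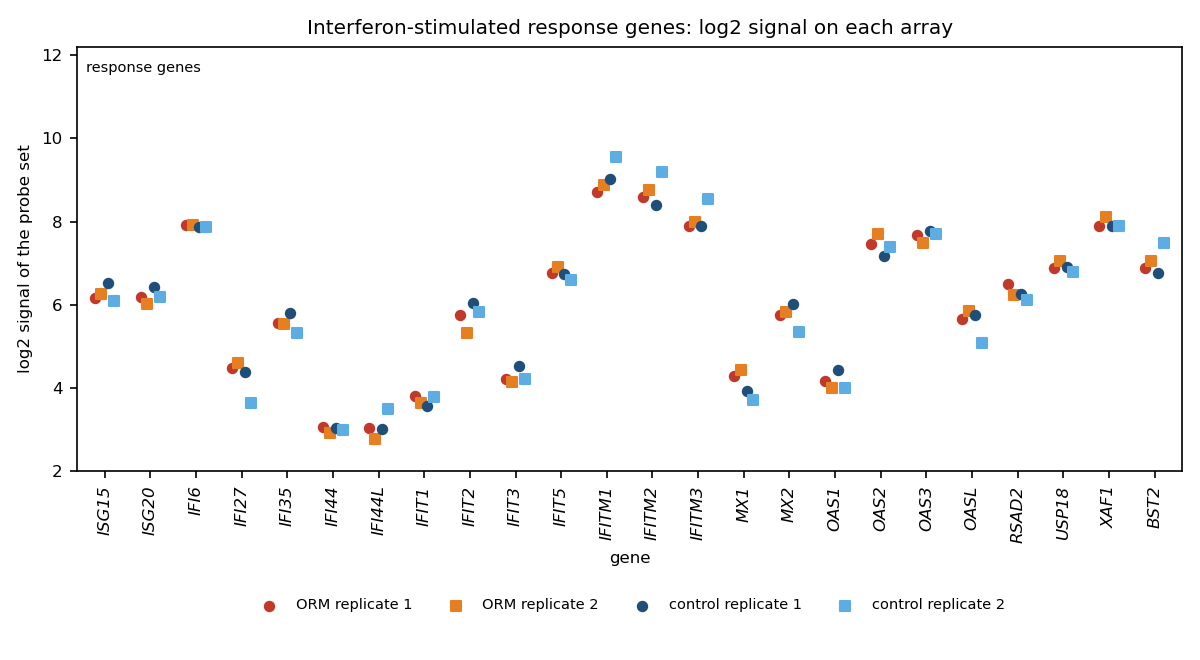
Log2 signal (vertical axis) of the 24 response genes (horizontal axis) on each of the 4 arrays. Each point is 1 array, red and orange for ORM and dark and light blue for control. In the 3 IFITM genes and BST2 control replicate 2 is the highest point, while in IFI27, MX2 and OASL it is the lowest, and the 4 points of IFI6 lie between 7.86 and 7.92.

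The IFIT genes, whose products bind viral RNA that lacks host cap marks, lie side by side in pairs on chromosome 10 and did not move together. IFIT1 was at 3.79 and 3.63 in ORM and 3.56 and 3.78 in control cells, dim on every array, with a log2 fold change of 0.04 (95% interval -0.37 to 0.45). IFIT2 had 5.75 and 5.32 against 6.05 and 5.82, a log2 fold change of -0.40 (SE 0.21). In IFIT3 the difference was -0.19 (SE 0.18), from 4.22 and 4.13 against 4.52 and 4.21, and in IFIT5 it was 0.16 (SE 0.16), from 6.75 and 6.90 against 6.73 and 6.60. All 4 intervals held 0.

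The 3 IFITM genes encode membrane proteins that block viral fusion, and their highest values were those of control replicate 2. IFITM1 gave 8.72 and 8.87 in ORM cells and 9.02 and 9.56 in the controls, with the ORM values lower and a log2 fold change of -0.50 (SE 0.22, 95% interval -1.02 to 0.03, adjusted p = 0.443 from limma). For IFITM2 the values were 8.58 and 8.77 against 8.40 and 9.18, and for IFITM3 they were 7.90 and 7.99 against 7.89 and 8.55. In both genes control replicate 1 was the lowest array and control replicate 2 the highest, and the differences of -0.12 and -0.28 turned to 0.28 and 0.06 without the latter. The genes are close relatives, and probe sequences were not used here, so how far their signals are separate was not tested. BST2, or tetherin, which holds budding virions at the membrane, had the same order of arrays, with 6.88 and 7.05 in ORM and 6.76 and 7.49 in control cells and a log2 fold change of -0.16 (SE 0.26).

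Of the oligoadenylate synthetase genes, which make the activator of RNase L on double-stranded RNA, OAS1, OAS3 and OAS2 lie in a row on chromosome 12. OAS2 was at 7.45 and 7.69 in ORM and 7.16 and 7.38 in control cells, a log2 difference of 0.30 (SE 0.18). OAS3 was at 7.68 and 7.49 against 7.78 and 7.70, a log2 fold change of -0.16 (SE 0.17). Thus the neighbours differed in sign, each within its interval around 0. OAS1 had 4.15 and 4.00 against 4.42 and 3.99 (log2 fold change -0.13, SE 0.20), and OASL, a relative without synthetase activity, had 5.65 and 5.85 against 5.75 and 5.08 (0.34, SE 0.25). The OASL difference was 0.00 without control replicate 2.

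Ubiquitin-like and other early response genes were level. ISG15, the ubiquitin-like modifier, gave 6.16 and 6.26 in ORM and 6.52 and 6.09 in control cells, a log2 difference of -0.10 (95% interval -0.57 to 0.38). USP18, the protease that removes ISG15 and dampens the receptor, had 6.87 and 7.04 against 6.91 and 6.79, a log2 fold change of 0.11 (SE 0.17). Neither set of values parted the groups. RSAD2, or viperin, was at 6.49 and 6.23 against 6.26 and 6.10 (log2 fold change 0.18, SE 0.18), and the exonuclease gene ISG20 at 6.18 and 6.01 against 6.42 and 6.18 (log2 fold change -0.21, SE 0.18). XAF1, a proapoptotic factor, had 7.89 and 8.11 against 7.90 on both controls, a difference of 0.10 (SE 0.17).

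Among the genes named only by their induction, IFI27 had the largest difference. It was at 4.47 and 4.60 in ORM and 4.38 and 3.64 in control cells, a log2 difference of 0.53 (SE 0.26, 95% interval -0.10 to 1.15, adjusted p = 0.468 from limma). The low value of control replicate 2 decided its size: the log2 fold change was 0.16 without that array and 0.90, past the threshold, without control replicate 1. IFI6 was the most even gene of the set, at 7.92 and 7.91 against 7.86 and 7.87 (log2 fold change 0.05, SE 0.16). IFI35 gave 5.55 and 5.54 between controls of 5.80 and 5.32 (log2 fold change -0.02, SE 0.20). The neighbours IFI44L and IFI44 were dim, the former at 3.03 and 2.77 against 3.01 and 3.50 (log2 fold change -0.36, SE 0.22) and the latter at 3.05 and 2.91 against 3.02 and 2.99 (log2 fold change -0.03, SE 0.16).

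Measured genes with a response element match in the printed or searched windows did not stand apart in their differences. The 18 genes with a match had a median log2 fold change of -0.06, with values from -0.50 for IFITM1 to 0.54 for MYD88 and MX1, 8 of them above 0 and 10 below, and none passed the threshold. The 15 measured genes whose windows held no match had a median of -0.02, with 7 above 0 and 8 below. ISG15 and BST2, each with overlapping GAAA matches, differed by -0.10 and -0.16, and IFIH1, with matches at 2 places, by 0.35.

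Further genes of the pathway came from 4 lists of 116 genes, of which 104 were measured and none passed the threshold. At an unadjusted p under 0.05, 10 of 49 other interferon-stimulated genes were higher and none lower (20.4%, against 5.91% of all probe sets that were higher at this p). With quantile normalization 9 were higher and 2 lower, and with trend and robust settings 11 were higher and 2 lower. Among those averaging 5 or more (log2), 11 of 36 were higher, where the share of all such probe sets was itself 9.57%. EIF2AK2, which encodes the double-stranded RNA kinase PKR, was at 8.94 and 9.11 in ORM and 8.39 and 8.25 in control cells, a log2 difference of 0.71 (SE 0.17), or 1.63-fold. NMI, an interferon-induced gene, was at 8.13 and 8.27 against 7.51 and 7.73, a log2 fold change of 0.58 (SE 0.17). Both ORM values of either gene lay above both controls. The other 8 genes were TAP2, TRIM5, DTX3L, SAMD9L, SP100, ZC3HAV1, PARP9 and PSMB8, with log2 fold changes of 0.39 to 0.78. TAP2 and PSMB8 act in antigen presentation and PARP9 with DTX3L in DNA repair as well as in the interferon response. The count was 8 without control replicate 2 (5.33% of all probe sets were then higher), 6 with the replicate number as a block (5.14%), 1 without ORM replicate 1 (1.63%) and 0 without ORM replicate 2 (0.788%), so the share over all probe sets fell too with either ORM array left out, and the adjusted p of all was at least 0.428 from limma.

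Among 20 measured genes of other sensors, adaptors and kinases, 3 were higher (15%, against 5.91% of all probe sets) and 1 lower (against 5.5%) at an unadjusted p under 0.05. The 3 were POLR3B and POLR3A, both of RNA polymerase III, and RIGI. POLR3B, a subunit of RNA polymerase III, which can transcribe cytosolic DNA into a RIG-I ligand, was at 7.64 and 7.96 in ORM and 7.07 and 6.85 in control cells, a log2 difference of 0.84 (SE 0.19) or 1.79-fold, just short of the fold threshold. TLR10, the neighbour family member with no agreed ligand, was dim at 2.70 and 2.76 against 3.35 and 3.27 (log2 fold change -0.58, SE 0.16). POLR3A and RIGI, the gene of RIG-I, were named after their values were seen. POLR3A was at 7.82 and 7.90 in ORM and 7.16 and 7.52 in control cells, a log2 difference of 0.52 (SE 0.19). RIGI was at 5.85 and 6.21 in ORM and 5.56 and 5.59 in control cells, a log2 difference of 0.46 (SE 0.18). Of 22 measured genes of interferons, their receptors and signal transducers, only the receptor subunit gene IFNAR2 (4.55%, against 11.4% of all probe sets) had an unadjusted p under 0.05, at 9.54 and 9.66 in ORM and 9.97 and 10.22 in control cells, a log2 difference of -0.50, SE 0.17). IFNAR1, the other subunit and the gene of that list with the next smallest p, had 7.96 and 8.04 against 7.59 and 7.71 (log2 fold change 0.35). IFNB1, the gene of interferon-β, also named after its values were seen, was at 4.70 and 4.28 against 4.61 and 5.09 and did not part the groups. Of 13 genes of a list of nucleases, transporters and related factors none was under that p, again against 11.4%. The smallest p were those of SLC19A1, an importer of cyclic dinucleotides, at a log2 fold change of 0.46 (SE 0.22), and RNASEH2C, a subunit of RNase H2, at -0.35 (SE 0.17).

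Spread between the controls was as large as most differences between the groups. In 30 of the 47 genes (63.8%, against 57.1% of all probe sets) both control arrays differed from each other by more than the group means did. The median absolute gap was 0.31 between controls and 0.17 between ORM arrays, against a median absolute difference of 0.16 between the groups. IRF7, IFITM2, UNC93B1, TBK1 and IFI27 had control gaps of 0.74 to 0.90 and TLR7 one of 1.19, while MYD88, MX1 and IFIH1 differed between the groups by more than their controls did. Control replicate 2 was the highest or the lowest array in 30 of the 47 genes, or 63.8%, against 63.9% of all named genes.

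**Figure D4:**
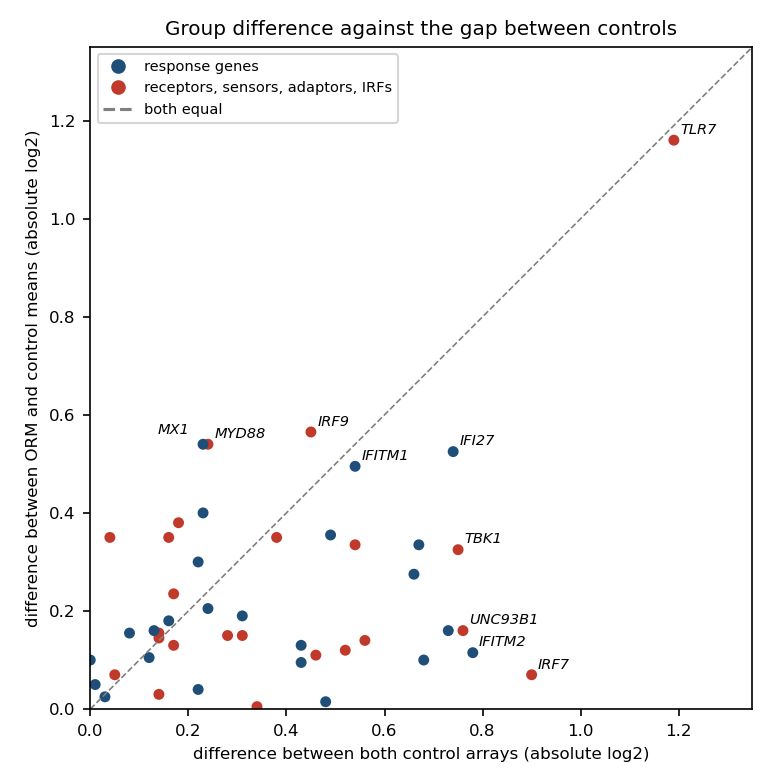
Absolute difference between ORM and control means (vertical axis, log2) against the absolute difference between both control arrays (horizontal axis, log2) for the 47 genes, with response genes in blue and all others in red. Genes below the dashed line of equal values, 30 of 47, differed more between controls than between groups, and TLR7 lies close to the line at 1.19 and 1.16.

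Each array was also left out in turn. In MYD88, MX1, IFIH1, IRF9, IRF1, TLR6, TLR7 and IFITM1 the groups did not overlap. Leaving out 1 array could therefore not turn their direction, and only the size of the difference is informative there. TBK1, whose groups overlapped, changed direction without control replicate 2. TLR7 moved farthest of the 47 genes, followed by IRF7, IFITM2 and UNC93B1. Their extremes came from leaving out either control, and by construction these lie apart by the gap between both controls. That order therefore repeats the control gaps given above and is no further check.

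**Figure D5:**
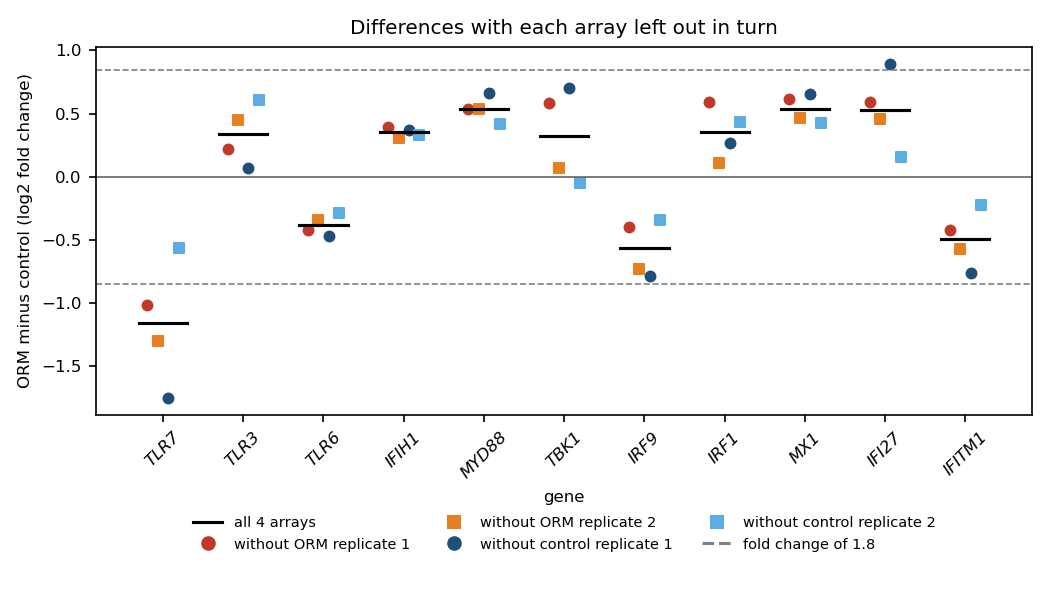
Log2 fold change of 11 genes (vertical axis) with all 4 arrays (black bars) and with each array left out (points coloured by the array that was omitted). Dashed lines mark a fold change of 1.8. TLR7 runs from -1.76 without control replicate 1 to -0.57 without control replicate 2, and IFI27 from 0.90 to 0.16.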

How the data were processed

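RNA of 2 ORM and 2 control samples of Jurkat cells was measured on Human Clariom S arrays. Normalization and log2 transformation were done for the authors by a genomics unit, and the deposited log2 values were used as they are. RMA and Transcriptome Analysis Console are named in the submitters' processing notes, with versions not given in the sources used here. Labels and supplementary methods name different RNA extraction procedures. Scanner files were not used here, so background correction and probe summarization were taken as deposited, and the number of arrays limits the precision.

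Each of 21448 probe sets was tested with limma 3.58.1 in R 4.3.3 (lmFit, eBayes, default settings, no filter on dim signals), with Benjamini-Hochberg adjustment over all of them. The threshold was the study's, namely more than 1.8-fold in either direction with p under 0.05 before adjustment. Standard errors and 95% intervals are limma's, which draws each variance toward a common value. Symbols came from the platform's annotation (1 symbol for 17709 probe sets, 3739 not listed), and 0 changed against the RefSeq gene table of GRCh38.p14. For a gene with several probe sets the brightest on average was kept, and each measured member had only 1. The methods' t-test left out 7 probe sets without spread in either group. Lists got counts and medians and no test. The members, the role groups, the pathway lists and the genes named were chosen with earlier results of these data known. Full statistics were due to members past the threshold and to the 3 of each group with the smallest p, and in the pathway lists to genes past the threshold or else the 2 with the smallest p. Alternatives were quantile normalization, median centring, a limit on dim probe sets, trend and robust settings, the methods' t-test, a replicate block, other thresholds, the mean of a gene's probe sets and each array left out. Of the tests only limma was tried on simulated data with known changes. The simulation gave both groups the same spread, whereas here the control pair differed more (SD 0.40, against 0.25 for the ORM pair). It therefore cannot show how the test behaves with such unequal spread. Promoter windows came from RefSeq (GRCh38.p14).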

Additional observations from a re-analysis of the deposited data

How the results depend on the processing

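The call of TLR7, the only member past the threshold, held with quantile normalization, median centring, trend and robust settings, a fold change over 1.5 or 2, the mean of a gene's probe sets and the replicate block (1 member each time). The count was 0 when only probe sets averaging 5 or more (log2) were kept, which removes TLR7 and leaves 30 members, 0 by the methods' t-test, 0 at an unadjusted p under 0.01, and 0 at an adjusted p under 0.05 by limma and by the t-test. It was 4 with no fold limit, and 0 to 2 with an array left out. Over all probe sets the 151 calls became 49 by the methods' t-test, 941 at a fold change over 1.5, 68 over 2, 2447 with no fold limit and 0 at an adjusted p under 0.05 by either test, and 100 to 1009 with an array left out. The numbers do not pair the arrays (the correlation of replicate differences was 0.093 over all probe sets), and with a replicate block the calls were 162 over all probe sets.

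Medians moved by more than their spread between replicates in the settings of the next sentence. The ranges after it, with an array left out, hold smaller moves too. Response gene medians stayed within that spread whichever array was left out. With quantile normalization the surface receptors were at -0.04 and the IRFs at -0.055, with median centring the IRFs were at -0.0675 and all members at 0.0275, and with only probe sets averaging 5 or more the cytosolic sensors were at 0.09 and all members at 0.04. With an array left out the medians ran from -0.22 to 0.085 for the endosomal group, from -0.2975 to -0.0275 for surface receptors, from -0.095 to 0.0925 for cytosolic sensors, from 0.07 to 0.66 for adaptors, from -0.34 to 0.14 for the IRFs, from -0.03 to 0.065 for response genes and from -0.04 to 0.045 for all members. With an array left out the sign turned in 19 of the 47 members, 3 of them among the 18 named by the rule, which were TLR2 without ORM replicate 2 (0.05) and without control replicate 2 (0.14; range -0.42 to 0.14), TLR9 without control replicate 1 (0.005; range -0.305 to 0.005) and TBK1 without control replicate 2 (-0.05; range -0.05 to 0.70). The count of 10 other interferon-stimulated genes, recomputed under alternatives chosen after seeing the data, was 6 with the replicate block and 0 to 11 with an array left out. The causes were not tested, apart from the dim limit and the thresholds, whose construction removes genes. Dim signals limit TLR1, TLR6, TLR8, CGAS, AIM2, IFI44, IFI44L and IFIT1, whose signals lay below the lower quartile on every array.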
